A study of Mus musculus with 12 samples.

Results

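Oxidative phosphorylation is carried out by 5 enzyme complexes of the inner mitochondrial membrane, and the nuclear genes for their subunits were taken from the gene table of the study by name alone. A gene was a member when its symbol was Nduf followed by a, b, c, s or v and a number (complex I, NADH dehydrogenase), Sdha to Sdhd (complex II, succinate dehydrogenase), Uqcr with a suffix (complex III, the cytochrome bc1 complex), Cox4 to Cox8 with a suffix (complex IV, cytochrome c oxidase) or Atp5 with a suffix (complex V, ATP synthase). The rule took 83 of the 24490 genes, whatever their level: 36 in complex I, 4 in complex II, 8 in complex III, 18 in complex IV and 17 in complex V. Sorting by name puts Ndufa4 with complex I, although its product is known as a subunit of complex IV. Cox7a2l, which helps to join complexes into larger assemblies, and Atp5s and Atp5sl, which are not standing subunits of ATP synthase, also came in by name.

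The study measured RNA of mouse dorsal root ganglia, the clusters of sensory nerve cell bodies beside the spinal cord, to describe the genes that nociceptors (neurons that respond to harmful stimuli) express. Ganglia of all levels came from adult male C57Bl/6 mice, and each of 3 groups had 4 samples. Intact ganglia were snap frozen, 1 mouse per sample. Unsorted cells were freed with enzymes from the ganglia of 2 mice per sample. MACS-sorted cells came from 8 mice per sample, and were dissociated in the same way before non-neuronal cells were bound by a cocktail of biotinylated antibodies and held back on a magnet. Polyadenylated RNA was sequenced on a HiSeq instrument. Levels are given in FPKM, the fragments of a gene scaled for the length of its transcript and for all fragments mapped, so they can be set beside each other between genes. The files hold no counts. A depth estimated from the spacing of the FPKM values, with a fragment length of 150 nt assumed, lay between 13300000 and 19300000 fragments per sample.

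Complexes I, III and IV move electrons from NADH to oxygen and pump protons, complex II feeds electrons from succinate, and complex V uses the proton gradient to make ATP. Most subunits are encoded in the nucleus, and a few core subunits are encoded by the mitochondrial genome. Several subunits of complex IV have more than 1 nuclear gene, with versions that are typical of heart and skeletal muscle, lung or testis.

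Fold changes are given as log2 of the first group over the second, computed on log2(FPKM + 0.1). A gene was tested when its mean over the samples compared was at least 1 FPKM, and it was called when the two-sided limma test, with the Benjamini-Hochberg adjustment over every gene tested, gave an adjusted p below 0.05. The study's own 3 criteria, also applied, ask in addition for a log2 ratio of group means beyond 0.5 and for more than 5 FPKM on average in the group where the gene is higher. Values after ± are standard deviations over 4 samples. The p-values measure the spread between samples that pool different numbers of mice.

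Intact 1 stood apart from the other intact samples. In 74 of the 83 members it was above each of the other 3 intact samples. That count was not made over all genes, so it has no background share. The median difference between intact 1 and the mean of intact 2 to 4 was 0.65 log2 units for the 80 members that average 1 FPKM or more in intact samples, against 0.035 for all genes. That difference depended on transcript length. Over all genes it had a median of 0.67 for transcripts under 1000 nt, 0.36 from 1000 to under 2000 nt, 0.033 from 2000 to under 4000 nt and -0.29 for 4000 nt and over. The members are short: their median transcript is 755 nt, against 2934 nt for the 12283 genes that average 1 FPKM or more, of which 99.3% have a length in the annotation. For the members of those length classes the medians were 0.78, 0.53 and 0.076, with no member in the longest class. Intact 1 also carried skeletal muscle RNA. Of 16 listed muscle markers the 15 other than Pvalb, which is also a marker of large neurons, summed to 3578, 86.8, 21.2 and 25.9 FPKM in intact 1 to 4, to 2.08, 1.43, 11.2 and 2.24 in unsorted and to 2.35, 2.44, 1.77 and 3.54 in MACS-sorted samples. Mylpf was the most abundant of them. Their part in the results was not tested. Counts and medians of the members in comparisons with the intact group are therefore given with and without intact 1.

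**Figure D1:**
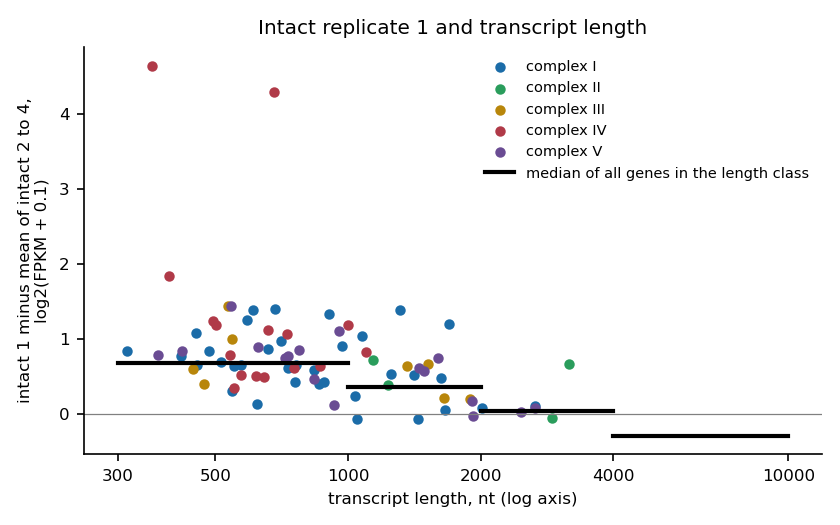
Difference between intact 1 and the mean of intact 2 to 4 on the log2(FPKM + 0.1) scale (vertical) for each subunit against its transcript length in nucleotides (horizontal, log axis), coloured by complex, with black bars for the median of all genes in a length class. The bars step down from 0.67 to -0.29, and the median subunit under 1000 nt lies at 0.78.

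The members were strongly expressed in every group. The median of their mean levels over the 12 samples was 85.2 FPKM, and 59 of the 83 had a mean of at least 50 FPKM, while the mean of 4 was below 1 FPKM. A level of 0 was listed in at least 1 sample for 8 members and in every sample for Cox8c alone. Ndufa4 had the highest mean over the 12 samples, at 1637, 632, 589.8 and 669 FPKM in intact, 583, 603, 542 and 562 in unsorted and 494, 511, 458 and 436 in MACS-sorted samples. Each MACS-sorted sample was below each unsorted and each intact sample for this gene, and intact 1 was far above the rest. Atp5b, the catalytic beta subunit of ATP synthase, and Cox4i1, the common form of complex IV subunit 4, were also among the most abundant. Group means for Atp5b were 559.5 ± 36.5, 630.4 ± 38.3 and 434 ± 43.1 FPKM in intact, unsorted and MACS-sorted samples (SD, n = 4).

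Together the 83 members took 4.96, 3.48, 3.63 and 3.76% of all FPKM in intact samples, 3.24, 3.29, 3.45 and 3.24% in unsorted and 2.66, 2.86, 2.50 and 2.54% in MACS-sorted samples. The group means were 3.96 ± 0.681, 3.31 ± 0.0983 and 2.64 ± 0.161% (SD, n = 4). The lowest share was in the MACS-sorted samples, every one of which was below every unsorted sample, and every unsorted sample was below every intact sample. Complex I, with Ndufa4 counted in it by name, took 1.47 ± 0.330, 1.17 ± 0.0209 and 0.970 ± 0.0599% of all FPKM, and complex II took the least, 0.123 ± 0.00781, 0.116 ± 0.00285 and 0.0882 ± 0.00514%. In bulk RNA, fewer cells of a type with a high level and less RNA of a gene per cell cannot be told apart.

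**Figure D2:**
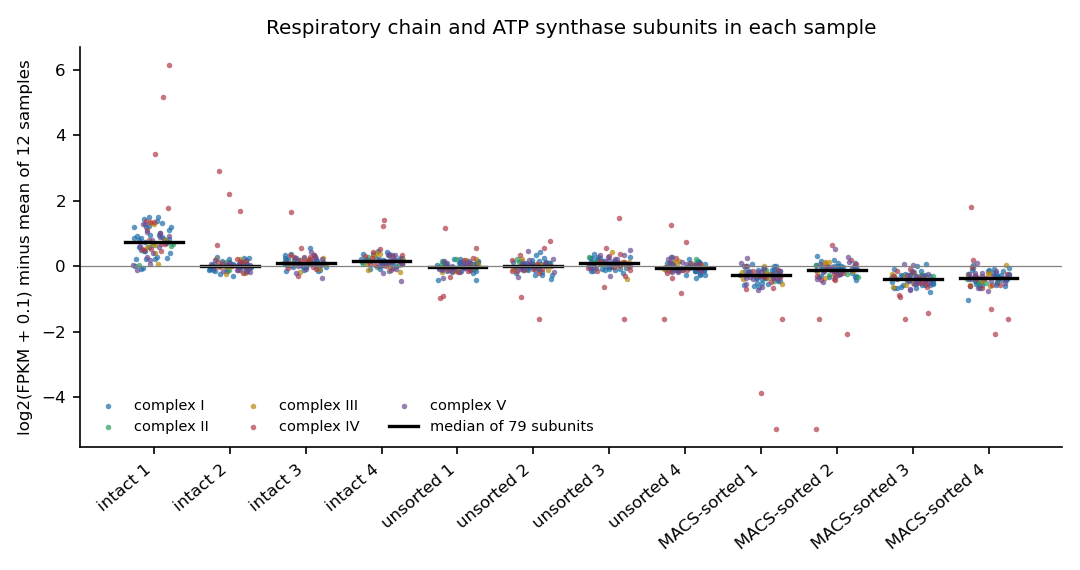
Each subunit's log2(FPKM + 0.1) minus its mean over the 12 samples (vertical) in each sample (horizontal), coloured by complex, for the 79 subunits with a mean of at least 1 FPKM, with a black bar at the median. The median was 0.75 in intact 1, between -0.046 and 0.17 in the other intact and the unsorted samples, and between -0.39 and -0.12 in the MACS-sorted samples.

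Marker genes described the cells in each preparation. Over the 8 satellite glia markers, all tested, 7 were lower in MACS-sorted than in unsorted samples. Their sum was 2668, 2661, 2307 and 2115 FPKM in unsorted and 122, 92.8, 132 and 196 in MACS-sorted samples, with Apoe the most abundant. Of 11 large neuron markers all 11 were lower. Their sum was 2160.4, 2139.9, 2544 and 2349 FPKM in unsorted and 587, 429, 496 and 411 in MACS-sorted samples, with Nefm, a neurofilament subunit, as the most abundant. Of 11 small nociceptor markers 9 were higher and 1 was lower. Their sum was 2832, 2782, 2710.2 and 2773 FPKM in unsorted and 4269, 4300.5, 3693 and 3099 in MACS-sorted samples, and Prph, the intermediate filament peripherin, was the most abundant. Of 8 markers of all neurons 3 were higher and 2 lower, their sum was 4321, 4361, 4554 and 4223 FPKM in unsorted and 4611, 4902, 4041 and 3815 in MACS-sorted samples, and Uchl1 was the most abundant. The part of these cell types in the results for the members was not tested.

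More listed cell types were compared in the same way between MACS-sorted and unsorted samples. Of 7 fibroblast markers 6 were tested and 5 were lower, with a sum of 339.9, 331, 169 and 224 FPKM in unsorted and 7.62, 8.01, 13.9 and 32.4 in MACS-sorted samples. Dcn was the most abundant, and Dpt was at 0 in all sorted samples. Of 8 macrophage markers 2 were tested and 2 were lower, with a sum of 16.04, 14.4, 7.61 and 9.59 FPKM in unsorted and 0.861, 0.796, 0.498 and 2.38 in MACS-sorted samples and C1qa as the most abundant. None of the 6 endothelial markers was called, and their sum was 50.5, 49.98, 38.2 and 44.8 FPKM in unsorted and 50.4, 11.4, 44.0 and 68.1 in MACS-sorted samples, with Cldn5 as the most abundant. Of 9 brown fat markers 2 were tested and 1 was lower, with a sum of 6.84, 6.02, 5.66 and 3.33 FPKM in unsorted and 2.29, 1.02, 2.66 and 3.64 in MACS-sorted samples. Fabp4 was the most abundant of them, and sorted samples held 0 FPKM of Elovl3 and Adrb3. In intact samples the brown fat sum was 30.1, 14.2, 7.04 and 12.4 FPKM, highest in intact 1. Of 16 muscle markers only 1, Pvalb, could be tested and it was lower, while sorted samples held 0 FPKM of Myh2, Atp2a1 and Mb. Of 12 listed red blood cell genes 11 entries were tested and 10 were higher, and the sum was 1732, 2578, 12713 and 15541 FPKM in MACS-sorted 1 to 4 against 413, 445, 151 and 213 in unsorted samples. Hbb-bs, a beta globin, was the most abundant. Hba-a1 was listed at 0 in all sorted samples, while entries of Hba-a2 averaged 2425 and 1520 FPKM there. Whether fragments of Hba-a1 were assigned to Hba-a2 was not tested. MACS-sorted 3 and 4 held by far the most globin. With the red blood cell list removed, 43 of 77 members were lower and 2 higher in MACS-sorted against unsorted samples. Over all genes 3124 were lower and 2638 higher of 12046, and the median of the members was -0.28. The part of the other lists in the result was not tested.

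MACS-sorted against unsorted samples is the comparison the study used to describe nociceptors, and both groups were dissociated in the same way. No member was higher in the sorted cells, and members of all 5 complexes were lower. Of the 77 members tested 44 were lower, while 27.7% of the 12038 genes tested were lower. The count higher was 0 by limma, where 18.8% of all genes were higher, and 1 member was higher at an unadjusted p below 0.05. The median log2 fold change was -0.31 over the members and -0.041 over all genes. By the study's 3 criteria 10 members were lower, against 12.5% of all genes, and 0 were higher, against 8.15%. That count of members is near the background share. In 42 members every MACS-sorted sample was below every unsorted sample, where the share of all genes was 27.8%. Another scaling changed the balance between all genes called higher and lower: 40.4% of the calls were higher as reported, 59.3% after quantile normalization and 30% after a trend with transcript length was removed. Quantile normalization moved the median of all genes by 0.145, and 49 members were lower and 2 higher with it, against 2767 and 4039 of 12249 genes. After the length trend was removed 66 were lower and 0 higher by limma, against 4265 and 1828 of 11941 genes. Without MACS-sorted 4, 2 members were higher and 42 lower, against 2568 and 3499 of 12028 genes. With all 12 samples in one fit 27 of 77 members were lower, against 3217 of 12038 genes, a smaller excess over the background.

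By complex the median log2 fold change in MACS-sorted against unsorted samples was -0.30 for I, -0.43 for II, -0.33 for III, -0.33 for IV and -0.31 for V. The counts lower by limma were 18 of 35 tested in complex I, 3 of 4 in II, 5 of 8 in III, 7 of 13 in IV and 11 of 17 in V. By transcript length, 25 of 48 members under 1000 nt were lower, with a median of -0.28. From 1000 to under 2000 nt 13 of 23 were lower, with a median of -0.33. From 2000 to under 4000 nt 6 of 6 were lower, with a median of -0.46. All genes of those classes had medians of 0.057, 0.021 and -0.036, and 19.8, 22.0 and 27.2% of them were lower. Of the 83 members 15 have a near-identical copy elsewhere in the annotation, so the gene their fragments came from is uncertain. Without them, an alternative chosen after seeing the data, 40 of 63 were lower, with a median of -0.32.

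**Figure D3:**
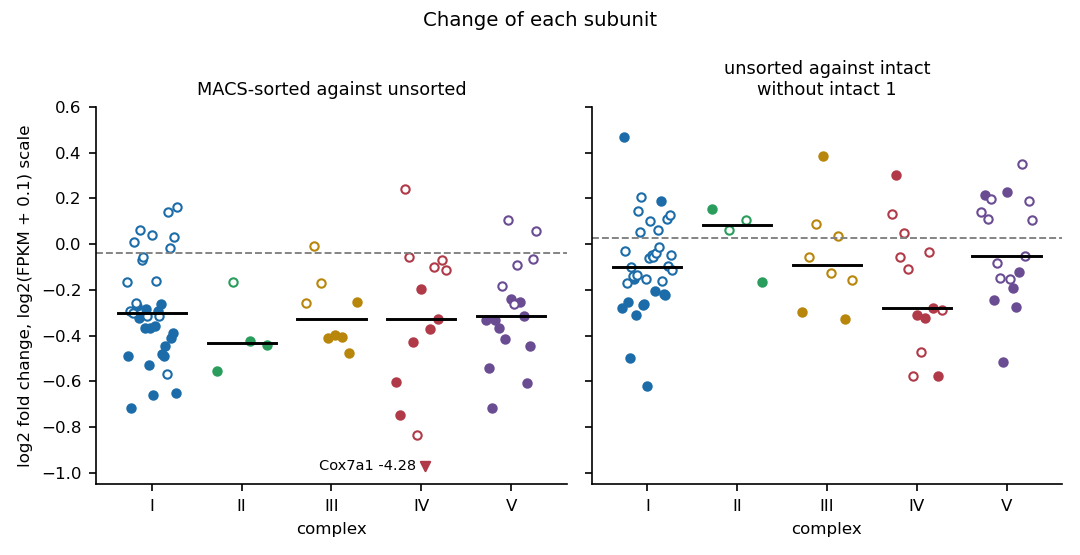
Log2 fold change of each tested subunit on the log2(FPKM + 0.1) scale (vertical) by complex (horizontal), for MACS-sorted against unsorted samples and for unsorted against intact samples without intact 1. Filled points passed an adjusted p of 0.05, open points did not, black bars are medians of a complex and the dashed line is the median of all genes (-0.041 and 0.029). A triangle marks Cox7a1 at -4.28.

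Complex I subunits of the arm that oxidises NADH differed from each other between MACS-sorted and unsorted samples. Ndufv2 (iron-sulfur protein, mm10 chr17:66078795-66101559) was at 75.0, 76.8, 72.7 and 72.4 FPKM in unsorted and 45.1, 52.6, 45.5 and 46.2 in MACS-sorted samples. Every sorted sample was below every unsorted sample, and the log2 fold change was -0.65 (SE 0.0670, adjusted p 4.49e-05). Ndufv1, which binds NADH, stood at 79.2, 82.9, 95.6 and 80.0 FPKM in unsorted and 87.8, 102, 82.6 and 74.2 in MACS-sorted samples. The groups overlapped and its log2 fold change of 0.033 did not pass. Ndufv3 gave 0.16 and did not pass either. Ndufs1, the largest iron-sulfur subunit, had 63.3, 65.7, 65.2 and 61.9 FPKM in unsorted and 45.5, 46.4, 47.2 and 43.0 in MACS-sorted samples, without overlap. It fell by a log2 fold change of -0.49 (adjusted p 1.01e-04). Ndufs7 and Ndufs8, core subunits that carry electrons toward ubiquinone, fell by -0.41 and -0.39. Ndufs4, an accessory subunit, was at 34.3, 32.3, 33.9 and 33.5 FPKM in unsorted and 39.6, 38.9, 35.6 and 33.8 in MACS-sorted samples. The groups overlapped through MACS-sorted 4, and its value of 0.14 did not pass.

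Ndufa10 (mm10 chr1:92439719-92473758), an accessory subunit of the membrane arm of complex I, was at 86.3, 80.5, 82.0 and 82.6 FPKM in intact, 107, 117, 118 and 111 in unsorted and 84.4, 86.2, 77.3 and 74.2 in MACS-sorted samples. The unsorted samples were all above both other groups, which overlapped. Its log2 fold change was -0.49 in MACS-sorted against unsorted samples (SE 0.0706, adjusted p 3.62e-04). Ndufa4 fell by -0.27 (adjusted p 0.0198) in that comparison. Ndufa12 and Ndufb5, named after their values were seen as the largest falls of complex I along with Ndufv2, gave -0.72 and -0.66. Ndufa12 has a near-identical copy elsewhere in the annotation, so its level is uncertain. Ndufs3, a core subunit that also has such a copy, gave -0.57 and did not pass. Ndufs5, an accessory subunit with a copy, was listed at 0 in 11 samples and at 6.29 FPKM in MACS-sorted 4, and was not tested.

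In complex II all 4 subunits were tested. Sdha, the flavoprotein that oxidises succinate (mm10 chr13:74322255-74350240), was at 108, 108, 115 and 109.6 FPKM in unsorted and 77.6, 79.0, 78.7 and 65.6 in MACS-sorted samples. The groups did not overlap, and MACS-sorted 4 was the lowest sample. Sdha fell by a log2 fold change of -0.56 (SE 0.0740, adjusted p 2.20e-04). The membrane anchors Sdhc and Sdhd fell by -0.42 and -0.44. Sdhb, the iron-sulfur subunit, was at 86.9, 87.8, 96.5 and 91.2 FPKM in unsorted and 83.5, 92.8, 78.8 and 69.1 in MACS-sorted samples. The groups overlapped and its value of -0.17 did not pass.

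In complex III the Rieske iron-sulfur protein Uqcrfs1 was at 74.1, 73.0, 78.3 and 76.1 FPKM in unsorted and 55.0, 61.1, 60.2 and 51.4 in MACS-sorted samples. The MACS-sorted samples were all lower, with a log2 fold change of -0.41 (adjusted p 0.00111). The core proteins Uqcrc1 and Uqcrc2 fell by -0.41 and -0.40. Uqcrh, the hinge protein that meets cytochrome c, had the most FPKM of the complex and the largest fall, -0.48 (adjusted p 0.00128). Uqcrb, with a near-identical copy, gave -0.17 and did not pass.

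Complex IV held the largest difference among the members tested, in a muscle form of a subunit, along with falls in most of its abundant subunits. Cox5a (mm10 chr9:57521232-57532426), a nuclear subunit of the matrix side, was at 256, 269, 276 and 256 FPKM in unsorted and 172, 180.0, 147 and 134 in MACS-sorted samples. There was no overlap, and it fell by a log2 fold change of -0.75 (SE 0.0979, adjusted p 1.95e-04). Cox4i1 was at 553, 558, 599 and 514 FPKM in unsorted and 381, 420.5, 342 and 325 in MACS-sorted samples. It too was lower in every sorted sample, by -0.60 (adjusted p 7.27e-04). Cox6b1, Cox7a2 and Cox7b fell by -0.43, -0.37 and -0.33. Cox6a1 was at 306, 313, 321 and 289 FPKM in unsorted and 280.3, 356, 289 and 263 in MACS-sorted samples. These groups overlapped, and neither Cox6a1 at -0.056 nor Cox8a at -0.11 passed. Cox5b and Cox7a2l, both with a near-identical copy, gave 0.24 and -0.10 and did not pass.

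The isoforms of complex IV that are typical of muscle were far less abundant than their common partners. Cox7a1 (mm10 chr7:30184171-30186030), the heart and skeletal muscle form of subunit 7a, was at 33.2, 9.91, 9.84 and 8.15 FPKM in intact, 6.85, 4.51, 8.52 and 7.39 in unsorted and 0, 0, 1.05 and 1.16 in MACS-sorted samples. All MACS-sorted samples were below all others, and MACS-sorted 1 and 2 were listed at 0. Its log2 fold change was -4.28 (SE 0.852, adjusted p 0.00252) in MACS-sorted against unsorted samples. Its size rests on the 0.1 FPKM added before the logarithm. As a share of Cox7a1 and Cox7a2 together, Cox7a1 made up 6.85, 5.01, 4.41 and 3.53% in intact, 4.05, 2.76, 4.55 and 4.32% in unsorted and 0, 0, 0.835 and 0.972% in MACS-sorted samples. The sorted samples were again all lower, while the intact and unsorted shares overlapped.

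Cox6a2, the muscle form of subunit 6a, was at 14.9, 1.84, 0.428 and 0.340 FPKM in intact samples and at or below 0.517 FPKM in every dissociated sample. Intact 1 held most of it. Cox8b, the muscle form of subunit 8, was at 21.4, 2.20, 0.286 and 0.614 FPKM in intact and 0.349, 0, 0 and 0 in unsorted samples and was listed at 0 in all sorted samples. Neither was tested between MACS-sorted and unsorted samples. The share of Cox6a2 in the sum of Cox6a1 and Cox6a2 was 3.37, 0.681, 0.144 and 0.104% in intact 1 to 4, and that of Cox8b in the sum of Cox8a and Cox8b was 4.16, 0.655, 0.0688 and 0.145%. Cox4i2, the lung form of subunit 4, was at 1.57, 0.100, 1.12 and 1.98 FPKM in intact, 0.861, 1.01, 1.13 and 0.478 in unsorted and 0.273, 0.352, 0 and 0 in MACS-sorted samples. The MACS-sorted samples were below the unsorted ones, and the gene was too low to be tested there. Of the testis forms, Cox6b2 ranged up to 5.01 FPKM, in MACS-sorted 4, and did not pass, Cox7b2 stayed at or below 1.16 FPKM, and Cox8c was listed at 0 in every sample.

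**Figure D4:**
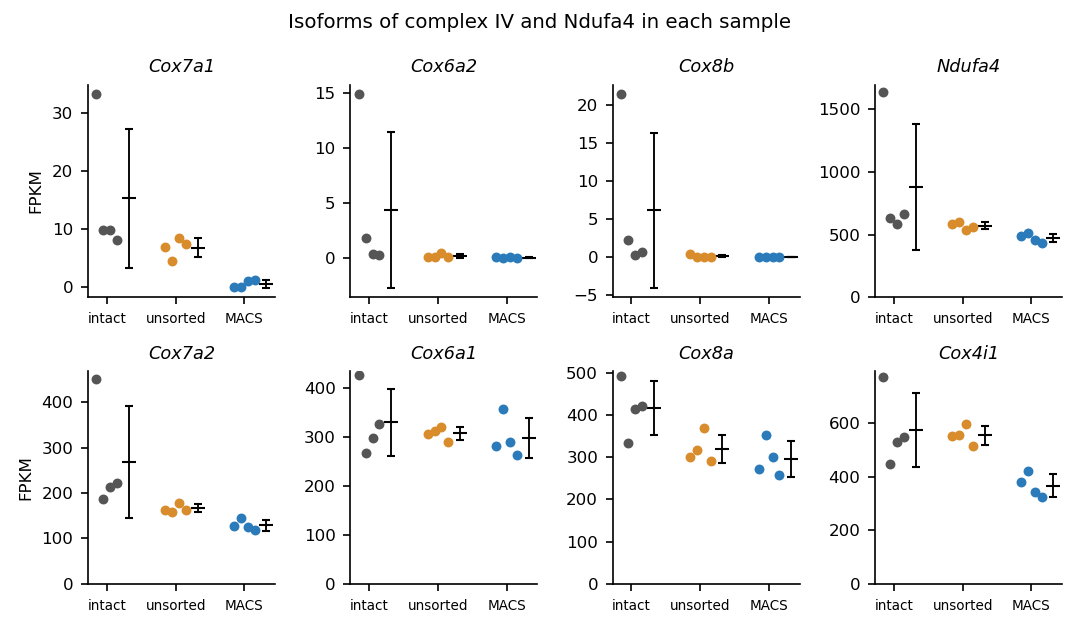
Level in FPKM (vertical) of muscle forms of complex IV subunits, their common partners, Ndufa4 and Cox4i1 in each sample of the 3 groups (horizontal), with a bar for the mean and whiskers of 1 SD over 4 samples. Intact 1 is the highest point of each panel, and Cox7a1 is at 0, 0, 1.05 and 1.16 FPKM in the MACS-sorted samples.

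In complex V the central stalk subunit Atp5c1 (mm10 chr2:10056031-10080510) was at 118, 121, 123 and 129.6 FPKM in unsorted and 80.0, 76.0, 76.9 and 66.6 in MACS-sorted samples. Without any overlap, it fell by a log2 fold change of -0.72 (SE 0.0721, adjusted p 3.91e-05). The catalytic head subunits Atp5b and Atp5a1 fell by -0.54 and -0.33. Atp5b was at 596, 622, 685 and 618 FPKM in unsorted and 420.0, 493, 435 and 389.9 in MACS-sorted samples. Each sorted sample was the lower one. Subunit c of the rotor is made from 3 genes, of which Atp5g3 gave 84.0, 86.3 and 87.3% of their summed FPKM in intact, unsorted and MACS-sorted samples. Atp5g3 fell by -0.24 and Atp5g1 by -0.41, while Atp5g2 gave 0.10 and did not pass. Atp5g1, Atp5g2 and Atp5l, which fell by -0.61, have near-identical copies, so their levels are uncertain. Atp5sl gave 0.059 and did not pass.

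Unsorted against intact samples compares dissociated cells of 2 mice per sample with intact ganglia of 1 mouse per sample. No sample was measured both before and after dissociation. Few members passed with all samples, and more did without intact 1. Of the 80 members tested, limma called 6 lower, against 7.79% of 12392 genes, and 2 higher, against 14.8%. The count lower is thus near the background share. By the study's 3 criteria 5 were lower, against 2.76%, and 0 were higher, against 4.29%. Without intact 1 these criteria gave 2 lower, against 2.56%, and 0 higher, against 3.20%. The median of the members was -0.25, and that of all genes 0.013. Without intact 1, 77 members were tested, 23 were lower (13.6% of 12294 genes were) and 7 were higher (22.2% were), and the median was -0.097 against 0.029. Leaving out any other sample of the pair of groups left 1 member higher. The count lower by limma was then 0 without unsorted 1, 1 without unsorted 2 or unsorted 4, 2 without intact 4 or unsorted 3, 3 without intact 3 and 7 without intact 2. In those fits, of 12386 to 12423 genes tested, between 498 and 773 were lower and between 1052 and 1405 were higher. After the trend with transcript length was removed, 14 of 80 members were higher, against 1934 of 12293 genes, which is near the background share. In that fit 6 were lower, against 1433 genes, a share below the background, and the median became 0.055. After quantile normalization 23 of 79 members were lower and 2 higher, against 1043 and 1422 of 12136 genes.

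Cell markers also differed between unsorted and intact samples. Large neuron markers were higher in 9 of 11 tested, with a median log2 fold change of 0.63, and without intact 1 in 10 of 11 (0.57). Satellite glia markers were higher in 5 of 8 (0.52) and without intact 1 in 6 of 8 (0.52). Endothelial markers were higher in 6 of 6 with and without it (1.07 and 1.05). Markers of all neurons were higher in 4 of 8 (0.31) and without intact 1 in 6 of 8 (0.23). Fibroblast markers were lower in 6 of 7 with and without intact 1 (-1.04 and -0.99), and macrophage markers in 5 of 7 (-1.11) and without it in 4 of 6 (-0.90). Muscle markers were lower in 9 of 13 (-5.02), and without intact 1, 7 of 8 were lower and 1 was higher (-3.53). Of 11 small nociceptor markers 3 were higher and 1 lower, and 3 and 2 without intact 1. Their part in the differences of the members was not tested.

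With all samples, 2 members were called higher in unsorted than in intact samples. Ndufa10 had a log2 fold change of 0.45 (SE 0.0622, adjusted p 0.00314), and Uqcrc1 had 0.33 (adjusted p 0.0280). Uqcrc1 was at 117, 95.2, 106 and 102 FPKM in intact and 126, 129, 149 and 124 in unsorted samples. The unsorted samples were all higher. Without intact 1 these values were 0.47 and 0.38, and Cox5a (0.30), Atp5g3 (0.23), Atp5b (0.22) and Sdha (0.15) were among the others that passed. Cox5a was at 299, 214, 208 and 219.8 FPKM in intact and 256, 269, 276 and 256 in unsorted samples. Only intact 1 reached above the unsorted samples.

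The 6 members called lower in unsorted than in intact samples were Cox8b (-3.72), Ndufb4 (-0.85), Cox7c (-0.77), Atp5g2 (-0.71), Ndufa2 (-0.66) and Uqcr10 (-0.39). Without intact 1 Ndufb4 (-0.62), Cox7c (-0.58), Atp5g2 (-0.52), Ndufa2 (-0.50) and Uqcr10 (-0.29) were also lower. Ndufb4, Cox7c, Ndufa2 and Uqcr10 were named after their values were seen. Ndufb4, Cox7c and Atp5g2 have near-identical copies and are uncertain, and 3 members remained lower when members with copies were left out. Cox8b fell with intact 1 in the group and was too low to be tested without it. Uqcrh was at 599, 288, 291 and 318 FPKM in intact and 217, 232, 244 and 259.8 in unsorted samples. Every unsorted sample was below every intact sample, and its log2 fold change of -0.58 missed the threshold with intact 1 (adjusted p 0.0870) and passed without it (-0.33, adjusted p 0.00568). The same held for Cox7a2 (-0.60 and -0.32), Cox7b (-0.57 and -0.28), Ndufs4 (-0.52 and -0.22) and Sdhd (-0.26 and -0.16). Without intact 1, 19 of 48 members under 1000 nt were lower, and of all genes of that length 27.0% were.

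MACS-sorted against intact samples spans both dissociation and sorting, and shares its samples with both other comparisons. Here too no member was higher. By limma 46 of 79 members were lower, against 20.6% of 12234 genes, and the count higher was 0, against 14.1%, with 0 at an unadjusted p below 0.05. By the study's 3 criteria 38 were lower, against 10.7%, and 0 higher, against 7.54%. Without intact 1 these criteria gave 25 lower, against 10.1%, and 0 higher, against 7.72%. The median of the members was -0.58 and that of all genes -0.038. Without intact 1, 47 of 77 were lower, against 21.6% of 12104 genes. By limma 0 were higher, against 17.0%, with 0 at an unadjusted p below 0.05, and the median was -0.41. Leaving out MACS-sorted 3 left 23 of 79 members lower, against 2176 of 12298 genes, and leaving out MACS-sorted 1 left 30, against 2276 of 12294. Without both MACS-sorted 3 and 4, the samples with the most globin and an alternative chosen after seeing the data, 12 of 79 were lower, against 2231 of 12303 genes, so the share of the members was then below that of all genes. Of all calls in this comparison 40.6% were higher, 60.3% after quantile normalization, which moved the median of all genes by 0.165, and 27% after the length trend was removed, which moved it by -0.122. The members lower were 56 and 57 of 79 with those scalings, against 2044 of 12303 and 3802 of 12133 genes.

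By complex the medians in MACS-sorted against intact samples were -0.54 for I, -0.43 for II, -0.55 for III, -0.80 for IV and -0.58 for V. Without intact 1 they were -0.36, -0.36, -0.39, -0.51 and -0.33. Uqcrh fell by a log2 fold change of -1.06 (adjusted p 0.00512) and without intact 1 by -0.81. Cox7a1 fell by -5.21 and without intact 1 by -4.75. Cox6a2 fell by -3.38, and Cox8b, listed at 0 in the MACS-sorted samples, was also called lower. Neither was tested without intact 1. Ndufa4 missed the threshold with intact 1 at -0.75 (adjusted p 0.0759) and passed without it at -0.41 (adjusted p 0.0129). Ndufa10, Uqcrc1 and Atp5g3 did not pass, at -0.043, -0.077 and -0.20, nor without intact 1, at -0.023, -0.026 and -0.010.

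Genes tied to the members by function were listed and tested in the same way between MACS-sorted and unsorted samples, where 27.7% of all genes were lower and 18.8% higher. Of 7 further subunits and electron carriers with other names 5 were tested and 3 were lower. Cyc1, cytochrome c1 of complex III, was at 117, 112, 117 and 104 FPKM in unsorted and 72.4, 81.4, 70.3 and 76.8 in MACS-sorted samples. All sorted samples were lower, with a log2 fold change of -0.58 (adjusted p 0.000123). Of the 13 subunits that the mitochondrial genome encodes, 0 were in the files. Of 37 assembly factors 9 were lower and 0 higher by limma, with a median of -0.099, so their share lower is not above that of all genes. All 16 listed genes of the citric acid cycle and of the pyruvate dehydrogenase complex, which feeds it, were lower, with a median of -0.48. Of 18 genes of transport across the mitochondrial membranes 8 were lower, with a median of -0.24. Of 15 tested glycolysis genes 5 were lower and 2 higher, with a median of -0.14. Of 74 tested mitochondrial ribosomal proteins 7 were lower and 5 higher, with a median of -0.059, and both shares are below those of all genes.

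Of 12 regulators of mitochondrial genes 4 were lower and 2 higher in MACS-sorted against unsorted samples, shares near the 27.7% and 18.8% of all genes. Ppargc1a, a coactivator of mitochondrial genes, was at 4.83, 4.54, 4.84 and 5.09 FPKM in unsorted and 1.07, 0.567, 0.899 and 0.890 in MACS-sorted samples. No sorted sample came near the unsorted ones, and the log2 fold change was -2.39 (adjusted p 8.65e-06). Esrra, a nuclear receptor that acts with it, was at 20.6, 19.8, 27.1 and 21.6 FPKM in unsorted and 6.48, 7.89, 6.64 and 8.04 in MACS-sorted samples. It was lower in all sorted samples, by -1.60 (adjusted p 6.34e-06). The transcription factors Yy1 and Nrf1 were higher in sorted than in unsorted samples, by 0.31 (adjusted p 0.00805) and 0.35 (adjusted p 0.0455). For Nrf1 the groups overlapped, with MACS-sorted 3 at 2.96 FPKM and unsorted 2 at 3.04. Intact samples held 3.75, 4.02, 3.85 and 3.94 FPKM of Nrf1, so the sorted samples were not above them.

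Promoters of the members were searched for short motifs of factors known to bind at such genes, from 250 bases before to 50 bases after the start in RefSeq (build GRCm38.p6). Of the 83 members 69 matched a promoter entry. Those without one, 14 in all, included Uqcrq, Atp5a1, Cox6c, Ndufb9, Cox8c, Cox4i2, Ndufa2, Uqcrc2, Uqcrb, Cox4i1, Sdhc, Ndufs1 and Cox6a2. On either strand the NRF1 motif GCATGCGC lay in 10 member promoters (14.5%), against 5.96% of the promoters of genes that average 1 FPKM or more and 3.05% of all genes. The YY1 motif AAGATGGCG lay in 8 (11.6%), against 3.54% and 1.64%. The ETS motif CCGGAAG lay in 16 (23.2%), against 19.6% and 9.93%. The CRE motif TGACGTCA lay in 4 (5.80%), against 3.60% and 2.03%, and the ERR motif TCAAGGTCA in 2 (2.90%), against 0.307% and 0.466%. At least 1 motif was found in 32 members, and NRF1 with ETS in 5. No test was made of these shares, and a match describes the sequence only. The promoters of Atp5k, Cox6a1 and Sdhb are shown since they carry NRF1 and ETS motifs together. That of Ndufa10 is shown since the gene was higher in unsorted than in intact samples and carries a CRE motif. The CRE motif also lay at Ndufa11, Ndufb2 and Uqcrfs1, none of which was called higher in that comparison. Uqcrc1, which was called higher there, carried an NRF1 motif and no CRE motif. Atp5k was chosen for its motifs, and Ndufa10 for its higher level in unsorted samples, after their values were seen. Each promoter shown runs from 180 bases before to 20 bases after the start, 5′ to 3′ on the strand of the gene. Capitals mark the motifs or their reverse complements, which overlap at the NRF1 sites of Atp5k and Cox6a1. They lie at chr5:108434380-108434579 (minus strand), chr5:115348939-115349138 (minus strand), chr4:140961091-140961290 (plus strand) and chr1:92473739-92473938 (minus strand).
Atp5k: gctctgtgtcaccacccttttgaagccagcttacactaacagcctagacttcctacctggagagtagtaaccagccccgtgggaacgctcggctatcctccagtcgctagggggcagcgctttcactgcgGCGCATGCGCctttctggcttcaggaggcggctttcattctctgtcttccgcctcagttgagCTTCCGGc
Cox6a1: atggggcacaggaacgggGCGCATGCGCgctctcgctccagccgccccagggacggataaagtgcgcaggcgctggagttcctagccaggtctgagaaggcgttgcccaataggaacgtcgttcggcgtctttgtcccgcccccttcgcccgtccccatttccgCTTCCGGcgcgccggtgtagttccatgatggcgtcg
Sdhb: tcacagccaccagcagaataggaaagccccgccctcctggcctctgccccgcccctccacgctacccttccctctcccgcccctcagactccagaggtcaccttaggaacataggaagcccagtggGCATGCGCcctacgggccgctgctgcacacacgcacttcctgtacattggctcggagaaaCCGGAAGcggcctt
Ndufa10: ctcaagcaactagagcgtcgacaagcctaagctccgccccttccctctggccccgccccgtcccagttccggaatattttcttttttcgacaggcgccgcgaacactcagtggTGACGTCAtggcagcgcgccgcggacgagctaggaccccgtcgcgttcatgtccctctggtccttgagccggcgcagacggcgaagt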

How the data were processed

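The authors aligned reads with TopHat2 to mm10, handled them with SAMtools and computed FPKM with Cufflinks 2.1.1, per their processing notes, and deposited the FPKM table used here. CuffDiff, which the authors used for tests, needs reads, so limma 3.58.1 (R 4.3.3, trend, moderated variances, two-sided) was run in its place on log2(FPKM + 0.1), with 2 groups per fit, only genes averaging 1 FPKM or more, and the Benjamini-Hochberg adjustment over all genes tested. A call was an adjusted p below 0.05. The step was first tested on simulated data. Members and lists were chosen with earlier results of these data known. Members named were fixed by rule (core subunits, tissue isoforms and their partners, the 3 largest changes each way in each comparison, members at 0 or below 1 FPKM, and the highest and lowest level of each complex), and others are said to be chosen after their values were seen. Marker and pathway lists covered cell types, related pathways and regulators. Transcript lengths and copies came from GENCODE M21, with a copy being another gene matched by blastn 2.17.0 at 98% identity or more over at least 100 nt. Settings tried were pseudocounts 1 and 0.01, no filter, a mean of at least 5 FPKM, 1 fit of 12 samples, a replicate block, no trend, size factors, quantile normalization, red blood cell genes removed, a loess trend with transcript length removed, averaging of unsorted 1 and 2, and each sample left out. Depth was estimated from the FPKM that 1, 2 and 3 fragments give, over 20574 genes.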

Additional observations from a re-analysis of the deposited data

Results flagged for a closer look

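Each sample was compared with the other 3 of its group for the named members, the complex sums and the sum of all members (Dixon's ratio, the gap to the nearest other sample over the group's range, with its critical value for 4 samples). There were 147 such groups, and for a single group chance alone gives about 1 in 20. The groups share samples and members, so the values found are not independent of each other. Where only 1 sample of a group is above 0, the ratio is 1 whatever its level. A sample far from its group was found for 30 values, of which 23 were in intact 1.

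Intact 1 was the highest of its group for the complex IV genes Cox5a (299 FPKM, others up to 219.8), Cox6a2 (14.9, up to 1.84), Cox6b1 (679.5, up to 496), Cox6b2 (4.97, up to 2.19), Cox7a1 (33.2, up to 9.91), Cox7a2 (452, up to 223), Cox7a2l (159, up to 91.8), Cox7b (193, up to 88.7), Cox7b2 (0.341, the others listed at 0) and Cox8b (21.4, up to 2.20). In complex I it was the highest for Ndufa4 (1637 FPKM, up to 669), Ndufs4 (89.8, up to 41.2) and Ndufv2 (200.6, up to 80.2), and for the complex I sum (6785, up to 4022). In complex II it was the highest for Sdhb (142 FPKM, up to 89.2) and Sdhc (106, up to 68.5), and in complex III for Uqcrb (74.7, up to 29.6), Uqcrc2 (107, up to 94.0), Uqcrfs1 (115, up to 75.1) and Uqcrh (599, up to 318). In complex V it was the highest for Atp5c1 (174 FPKM, up to 114) and Atp5g3 (576, up to 361). The sum over all members was 17144 FPKM in intact 1 and up to 11040.4 in the others. Muscle RNA and a surplus of short transcripts were both measured in this sample, and their parts cannot be told apart. Fibroblast markers summed to 948, 540, 591 and 499 FPKM in intact 1 to 4, and macrophage markers to 47.7, 23.9, 23.8 and 25.0. The large neuron sum was lowest in intact 1, at 1280, 1476, 1578 and 1447 FPKM in intact 1 to 4. That sum includes Pvalb, also a muscle marker, which was at 441, 63.2, 67.8 and 61.8 FPKM in these samples. The part of these cell types was not tested.

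In unsorted 3 Atp5a1 was at 375 FPKM (others up to 332), Cox6a2 at 0.517 (up to 0.138) and the complex V sum at 2986 (up to 2763). Cox8b was at 0.349 FPKM in unsorted 1 and listed at 0 in the other unsorted samples. Ndufv2 was at 52.6 FPKM in MACS-sorted 2 (others up to 46.2). In MACS-sorted 4 Ndufs5 was at 6.29 FPKM, with the others listed at 0, and Sdha was at 65.6 FPKM, below the others (77.6 and above). The reason for these values was not tested.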

How the results depend on the processing

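In MACS-sorted against unsorted samples the members lower (44 as reported) ranged from 36 to 53 with 1 sample left out and the median (-0.31) from -0.39 to -0.26, and the members higher (0 by limma) reached 2, without MACS-sorted 4. Over all genes between 2825 and 3499 were lower in those fits, of 11977 to 12110 tested, and 2568 of 12028 were higher without MACS-sorted 4. Other settings gave 27 lower with all 12 samples in one fit (3217 of 12038 genes) and a median of -0.57 with the length trend removed. Median-ratio size factors gave 2 higher (2863 of 12045 genes). Quantile normalization (4039 of 12249 genes) and removal of the red blood cell list (2638 of 12046 genes) also gave 2 higher each. Alternatives chosen after seeing the data gave 3 higher (2559 of 12066 genes) and a median of -0.21 without MACS-sorted 3 and 4. Also chosen then, leaving out transcripts under 1000 nt gave 20 lower of 29 (3201 of 11158 genes) and a median of -0.40. Fewer members were tested there. In unsorted against intact samples the members higher (2) ranged from 1 to 7 with 1 sample left out, the members lower (6) from 0 to 23 and the median (-0.25) from -0.35 to -0.097. Over all genes between 1052 and 2724 were higher and between 498 and 1666 lower in those fits, of 12294 to 12423 tested. Here 1 was higher in one fit of 12 samples (1178 of 12392 genes). With unsorted 1 and 2 averaged 1 was higher and 1 lower (1082 and 610 of 12401 genes). With quantile normalization 23 of 79 were lower (1043 of 12136 genes). With the length trend removed 14 of 80 were higher (1934 of 12293 genes). With copies left out, chosen after seeing the data, 3 of 66 were lower (965 of 12392 genes). The length trend reversed the median, to 0.055, and turned Cox4i1 and Cox6a1 to 0.31 (adjusted p 0.0104) and 0.34 (adjusted p 0.0187). In MACS-sorted against intact samples the members lower (46) ranged from 23 to 47 with 1 sample left out and the median (-0.58) from -0.64 to -0.41, with 23 without MACS-sorted 3 and 30 without MACS-sorted 1. Over all genes between 2032 and 2623 were lower in those fits, of 12104 to 12326 tested. Added after seeing the data, leaving out MACS-sorted 3 and 4 gave 12 lower of 79, below the share of all genes (2231 of 12303), and leaving out transcripts under 1000 nt gave 18 of 29, above it (2372 of 11314). With the replicate block, the members higher and lower were 0 and 42, 2 and 4, and 0 and 41, with the medians unchanged. The counts over all genes were 2073 and 3098 of 12038, 1439 and 848 of 12392, and 1353 and 2235 of 12234. Only a number is shared by samples of different groups: over 12 pairs of samples with a number in common, r of group-centred values was between -0.143 and 0.0671, and the sample of the same number was the best match in 4 of 24 cases. Named members kept their side of the threshold, with no reversal of a called value, in 786 of 837 values, 776 of 829 and 747 of 835 in the 3 comparisons. Sign changes of values that missed the threshold under both settings were not counted as reversals and are among these values; there were 13, 39 and 13. Fewer samples or genes lower what a test can reach, and apart from that the cause was not tested. Without counts, how far depth limits the lowest members is unknown.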

Other observations

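Cytosolic ribosomal protein genes went the other way in MACS-sorted against unsorted samples. Of 65 tested 33 were higher and 0 were lower by limma, with a median log2 fold change of 0.36, against 18.8% of all genes higher. In unsorted against intact samples 0 of 66 were higher and 19 were lower, with a median of -0.56, where 7.79% of all genes were lower. Without intact 1, 32 of 65 were lower, against 13.6% of all genes, with a median of -0.33. In MACS-sorted against intact samples 4 of 68 were lower, with a median of -0.22, and without intact 1, 2 of 68 were lower and 7 higher, with a median of 0.0076. Those shares are below the shares of all genes, which were 20.6% lower with intact 1 and 21.6% lower and 17.0% higher without it.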
